A study of Mus musculus with 4 samples.

Results

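The genes that carry vesicles between the endoplasmic reticulum (ER) and the Golgi were followed in sorted lung epithelium of mouse embryos with and without Emc3. The set holds 44 of the 23444 genes in the deposited table. They were taken by symbol from a list of coat subunits, cargo receptors, retrieval receptors and fusion factors, and every symbol was found. The list was chosen with earlier results of these data known. Among the 44 are 12 genes of the COPII coat and its assembly and 12 of the COPI coat and its Arf GTPases. The rest are 13 cargo receptors, 3 retrieval receptors and 4 genes of vesicle tethering and fusion.

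RNA was sequenced from EpCAM-positive lung cells at E18.5, shortly before birth. The KO group (n = 2) lost Emc3 conditionally in lung epithelium during development, and the WT group (n = 2) is wild-type. EMC3 is a core subunit of the ER membrane protein complex, which inserts membrane proteins into the ER. What drives the recombinase, how many embryos stand behind a library and which litters they came from is not said, so p-values cover the spread between these samples alone, which may be technical. The deposited unit is RPKM (reads per kilobase, scaled to library depth), so levels of different genes can be set side by side. A library's name joins its group to the number that opens its heading, 27 or 35.

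Proteins made at the ER leave it in vesicles coated by COPII. The GTPase SAR1 starts this coat, SEC23 and SEC24 form its inner layer and pick up cargo, and SEC13 and SEC31 form the outer cage. COPI vesicles, started by ARF GTPases and built from a complex of 7 subunits, carry escaped ER proteins and the traffic machinery back. Alveolar type 2 cells send surfactant proteins along this route.

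The column headings and the sample titles disagree. The headings name KO 27 and KO 35 as mutant and WT 27 and WT 35 as control, whereas by the numbers in the sample titles and descriptions KO 27 would be wild-type and WT 35 a knockout. Directions below follow the headings. Emc3 read 2.28 RPKM in KO 27 and 2.33 in KO 35, against 14.2 RPKM in WT 27 and 18.0 in WT 35 (log2 fold change -2.36, SE 0.16, limma adjusted p = 0.0242). This call was lost without KO 27 (log2 fold change -2.35, adjusted p = 0.0664), without KO 35 (-2.37, adjusted p = 0.0642) and with no filter (-2.36, adjusted p = 0.171), with a fold change as large. Emc3 is thus low in the libraries that the headings call mutant.

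RPKM summed to 141373 and 146918 in the KO libraries, against 151616 and 169294 in the WT libraries, and 9815 to 9964 genes per library reached 1 RPKM. In KO 14.1% and 15.4% of the sum came from the 10 highest genes, against 20.5% and 26.5% in WT. Reads per library are not given, so no counting interval is possible. Over genes of low level the commonest ratio to KO 27 was between 0.966 and 1.06. Ratios far from 1 were left out beforehand, and the commonest bin held 17.1% to 24.6% of those kept. These ratios therefore cannot settle whether 1 read was worth the same in each library. All 5 epithelial markers were present, with summed levels of 488 to 506 RPKM in KO and 466 to 491 RPKM in WT. Epcam, the sorting marker, was at 52.9 and 53.9 RPKM in KO and 35.2 and 46.2 RPKM in WT. Krt18 was at 24.5 and 31.1 RPKM in KO and 20.1 and 16.2 RPKM in WT. Krt8 was at 29.5 and 33.8 RPKM in KO and 27.2 and 23.8 RPKM in WT. These 3 of 5 had KO above WT without overlap, where 30.0% of all tested genes did, and the groups overlapped for Cdh1 and Nkx2-1. The 8 immune markers summed to 6.35 to 9.94 RPKM in KO and 2.96 to 3.85 RPKM in WT, with C1qa at 0 throughout, and Ptprc was at most 0.401 RPKM. The 4 immune markers that were tested all had KO above WT without overlap, where 30.0% of all tested genes did. Tyrobp was at 3.57 and 1.8 RPKM in KO, against 0.831 and 0.182 RPKM in WT. The 3 club cell markers summed to 1729 to 2889 RPKM in KO and 2807 to 10020 RPKM in WT, and the 3 ciliated cell markers to 85.3 to 86.8 RPKM in KO and 115 to 184 RPKM in WT. The 5 alveolar type 2 markers summed to 10020 to 10220 RPKM in KO and 8810 to 13130 RPKM in WT. Abca3 among them was at 59.18 and 51.55 RPKM in KO, against 70.13 and 89.98 RPKM in WT. Endothelial markers summed to 11.1 to 13.9 RPKM in KO and 12.5 to 14.9 RPKM in WT. Alveolar type 1 markers summed to 133.8 to 137.7 RPKM in KO and 128.8 to 203.9 RPKM in WT. Mesenchymal markers summed to 19.25 to 21.41 RPKM in KO and 16.35 to 23.18 RPKM in WT. Erythroid markers summed to at most 3.896 RPKM. Rtkn2 (type 1), Kdr (endothelial) and Col1a1 (mesenchymal) also lay below WT without overlap (16.3% of all tested genes). The other tested markers of these types overlapped. The part of these marker differences in the results below was not tested. In sorted bulk RNA, fewer cells of a type and less RNA per cell cannot be told apart.

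As a group, the traffic genes lay higher in KO than in WT by small amounts. Of the 44 genes 43 reached 1 RPKM in at least 2 libraries and were tested, and each of these was above 1 RPKM in all 4 libraries, so none passed through 1 group alone. The log2 fold change, the KO mean of log2(RPKM + 1) less the WT mean, was positive for 38 of 43, where 59.2% of all 10128 tested genes were positive. The median was 0.30, against 0.056 over all tested genes, and the members ranged from -0.16 to 0.95. The KO libraries both lay above the WT libraries for 31 members and below them for 1, where the shares among all tested genes were 30.0% and 16.3%.

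None of the members passed limma's test. In its fit with Benjamini-Hochberg adjustment the lowest adjusted p among them was 0.163, for Kdelr3, and 7 of 10128 genes (0.0691%) passed. At an unadjusted p under 0.05 there were 15 members higher in KO and 0 lower, where 8.17% of all tested genes were higher and 5.68% lower. The count rested in part on KO 35: without that library it was 4 (Kdelr3, Kdelr2, Ergic1 and Bet1), where 3.66% of all tested genes were higher at that level. It was 14 without KO 27 (5.85% of all), 10 without WT 27 (7.83%) and 12 without WT 35 (8.61%), and 19 with a block by heading number (9.52%). The member median was 0.21 without KO 35 and 0.39 without KO 27. With 1 library of a group left out, 32 to 37 members had KO above WT without overlap and 2 to 5 below, where the shares of all tested genes above were 44.5% without KO 27, 41.6% without KO 35, 43.9% without WT 27 and 48.1% without WT 35, and the shares below 27.8%, 26.5%, 32.4% and 27.8% in the same order. With quantile normalization 3 members lay below WT (20.4% of all), and among genes with a mean of at least 10 RPKM 19 of 23 members lay above (33.4% of all).

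**Figure D1:**
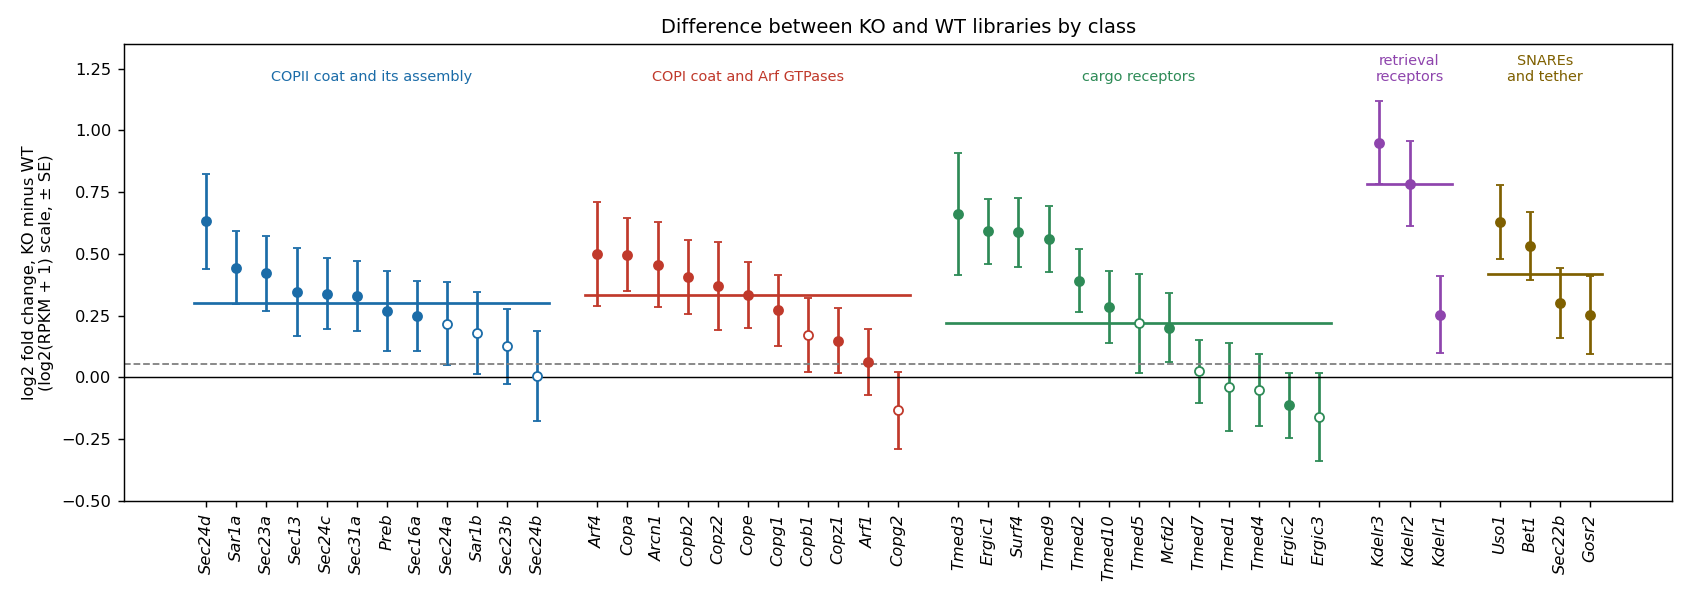
Log2 fold change of the 43 tested genes, KO less WT in log2(RPKM + 1), by class; bars are limma's standard errors, filled points mark genes whose KO and WT libraries do not overlap, coloured lines the class medians, and the dashed line the median of all tested genes. The class medians run from 0.22 (cargo receptors) to 0.78 (retrieval receptors), and 5 genes lie below 0.

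Kdelr3 and Kdelr2, both retrieval receptors, had the highest log2 fold changes of the set, while Kdelr1 (0.25) lay below the member median of 0.30. KDEL receptors bind the C-terminal KDEL signal of soluble ER chaperones in the Golgi and return them to the ER in COPI vesicles. Kdelr3 (chromosome 15, 79516408 to 79527739, GRCm38) had 4.20 RPKM in KO 27 and 5.56 RPKM in KO 35, against 1.92 RPKM in WT 27 and 2.12 in WT 35. Both KO libraries were above both WT libraries, with a 2.41-fold ratio of means (log2 fold change 0.95, SE 0.17, adjusted p = 0.163). Over the other settings, groups by title left out, its adjusted p lay between 0.130 and 0.617.

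Kdelr2 (chromosome 5, 143403820 to 143421904) stood at 26.8 and 33.7 RPKM in KO, against 15.7 and 18.4 RPKM in WT. Its libraries did not overlap either, and KO exceeded WT 1.77-fold (log2 fold change 0.78, SE 0.17, adjusted p = 0.196). Kdelr1 was at 17.0 and 19.8 RPKM in KO, against 14.0 and 16.5 RPKM in WT, with the nearest KO and WT libraries close together (log2 fold change 0.25, SE 0.16, adjusted p = 0.546). Summed over the 3 genes, KDEL receptor RNA was 47.9 and 59.0 RPKM in KO, against 31.7 and 37.0 RPKM in WT. The shares of the paralogues were as follows. Kdelr3 made up 8.76% and 9.43% of the sum in KO, against 6.06% and 5.75% in WT, and Kdelr1 35.4% and 33.5% in KO, against 44.2% and 44.5% in WT. With 2 libraries a group an exact two-sided permutation test of such shares cannot go below p = 0.333, so they are given as values only.

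**Figure D2:**
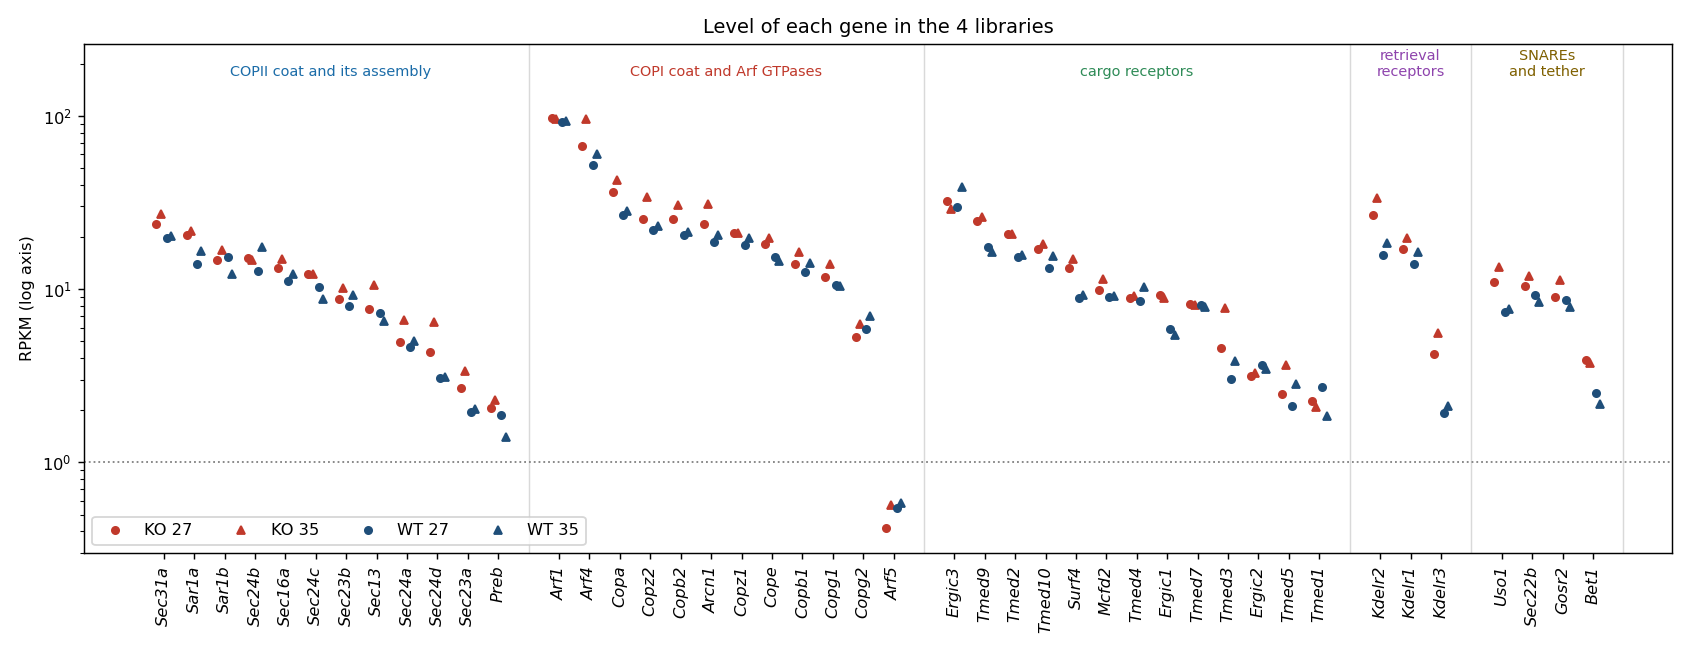
RPKM (log axis) of all 44 genes in each library, with KO in red left of WT in blue, circles for heading number 27 and triangles for 35; the dotted line marks 1 RPKM. Kdelr3 shows the widest gap between the groups, its lower KO library standing clear of both WT libraries, and Arf5 is the 1 gene under 1 RPKM throughout.

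The cargo receptors were mixed. Of 13 tested, 7 had KO above WT in every pairing of libraries, 1 had KO below and 5 overlapped, where 30.0% and 16.3% of all tested genes lay above and below, and the median log2 fold change was 0.22. At an unadjusted p under 0.05 there were 5 (8.17% of all tested genes were higher), all higher in KO: Ergic1, Surf4, Tmed9, Tmed2 and Tmed3.

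Surf4 encodes the mammalian relative of yeast Erv29, which loads soluble secretory proteins into COPII vesicles. It was at 13.2 and 14.99 RPKM in KO, against 8.85 and 9.21 RPKM in WT (log2 fold change 0.59, SE 0.14, adjusted p = 0.205). Ergic1, a membrane protein of the compartment between ER and Golgi, was at 9.22 and 8.85 RPKM in KO, against 5.90 and 5.43 RPKM in WT (log2 fold change 0.59, SE 0.13, adjusted p = 0.196). Both genes had KO libraries well clear of the WT libraries. Ergic1 overlaps the neighbouring gene Dusp1 by 11 exon bases on the opposite strand, and Surf4 overlaps Surf2 by 144. Since the kit keeps no strand, reads in such overlaps cannot be assigned. The same limit holds for Ergic2 (754 exon bases shared with Far2), Preb (649 with Abhd1), Arf4 (400 with Pde12), Arf5 (313 with Gcc1), Tmed5 (395 with Mtf2), Copa (708 with Gm37756 and 195 with Ncstn), Copg1 (720 with Gm26636), Sec23a (431 with Gm17529) and Kdelr3 (4 with Ddx17), while Tmed7 shares 838 exon bases with Ticam2 on its own strand.

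Their relatives Ergic2 and Ergic3, which form a complex in the same compartment, did not share this pattern. Ergic2 was at 3.13 and 3.29 RPKM in KO, against 3.63 and 3.47 RPKM in WT, and was the 1 member whose KO libraries both lay below the WT libraries (log2 fold change -0.11, SE 0.13, adjusted p = 0.761). Ergic3 was at 32.1 and 28.9 RPKM in KO, against 29.9 and 39.1 RPKM in WT, with overlapping groups. Without WT 35 its log2 fold change was 0.03 in place of -0.16.

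The TMED (p24) proteins are transmembrane receptors that cycle between ER and Golgi in complexes with one member of each subfamily. Tmed9, of the alpha subfamily, was at 24.7 and 26.1 RPKM in KO, against 17.5 and 16.3 RPKM in WT (log2 fold change 0.56, SE 0.13, adjusted p = 0.205). Tmed2, the beta member, was at 20.9 and 20.7 RPKM in KO, against 15.4 and 15.8 RPKM in WT (log2 fold change 0.39, SE 0.13, adjusted p = 0.293). Tmed10, the delta member, was at 17.1 and 18.3 RPKM in KO, against 13.2 and 15.5 RPKM in WT (log2 fold change 0.29, SE 0.15, adjusted p = 0.463). In all 3 the KO libraries lay above the WT libraries.

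The gamma subfamily was mixed. Tmed3 was at 4.56 and 7.77 RPKM in KO, against 3.03 and 3.84 RPKM in WT, with a wide spread between the KO libraries (log2 fold change 0.66, SE 0.25, adjusted p = 0.335). Tmed5 overlapped, at 2.50 and 3.66 RPKM in KO and 2.12 and 2.85 RPKM in WT. Tmed7 was nearly level, at 8.23 and 8.10 RPKM in KO and 8.15 and 7.88 RPKM in WT (log2 fold change 0.02, SE 0.13), and turned to -0.03 with quantile normalization. Tmed1 was at 2.25 and 2.1 RPKM in KO and 2.72 and 1.86 RPKM in WT, and lies over Dnm2, which it overlaps by 207 exon bases on the opposite strand. Of the alpha subfamily, Tmed4 was at 8.93 and 9.19 RPKM in KO and 8.58 and 10.3 RPKM in WT. The differences between these paralogues were not tested. Mcfd2, the soluble partner of the lectin receptor LMAN1, was at 9.91 and 11.4 RPKM in KO, against 9.04 and 9.18 RPKM in WT (log2 fold change 0.20, SE 0.14).

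All 12 COPII genes had a log2 fold change above 0, their median was 0.30, and 8 had KO libraries above WT libraries without overlap (59.2% and 30.0% of all tested genes). Sec24d, a cargo-binding inner coat subunit (chromosome 3, 123264801 to 123365641), stood highest. It was at 4.34 and 6.46 RPKM in KO, against 3.05 and 3.10 RPKM in WT (log2 fold change 0.63, SE 0.19, adjusted p = 0.263). Sar1a was at 20.6 and 21.7 RPKM in KO, against 14.0 and 16.6 RPKM in WT (log2 fold change 0.45, SE 0.15, adjusted p = 0.295). Sec23a, which stimulates the SAR1 GTPase, was at 2.69 and 3.36 RPKM in KO, against 1.94 and 2.05 RPKM in WT (log2 fold change 0.42, SE 0.15, adjusted p = 0.323). These were the 3 COPII genes at an unadjusted p under 0.05, where 8.17% of all tested genes were higher at that level.

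The next COPII genes by p were Sec24c and the outer cage gene Sec31a. Sec24c was at 12.3 RPKM in each KO library, against 10.3 and 8.73 RPKM in WT (log2 fold change 0.34, SE 0.14). Sec31a was at 23.7 and 27.2 RPKM in KO, against 19.7 and 20.4 RPKM in WT (log2 fold change 0.33, SE 0.14). Its cage partner Sec13, which also serves in nuclear pores, was at 7.73 and 10.5 RPKM in KO, against 7.26 and 6.53 RPKM in WT (log2 fold change 0.35, SE 0.18, adjusted p = 0.469). Sec13 lies on chromosome 6, only 196414 bases from Emc3 itself, and it was the nearest member to the deleted gene. Its difference was 0.08 between the libraries numbered 27 and 0.61 between those numbered 35.

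Paralogous COPII subunits differed less, or overlapped. Sec23b was at 8.76 and 10.1 RPKM in KO and 7.94 and 9.21 RPKM in WT. Sec24a was at 4.99 and 6.62 RPKM in KO and 4.61 and 5.01 RPKM in WT. Sec24b was at 15.2 and 14.8 RPKM in KO and 12.7 and 17.5 RPKM in WT, with a log2 fold change of 0.01 whose sign turned with quantile normalization (-0.06) and median scaling (-0.04). Sar1b was at 14.6 and 16.9 RPKM in KO and 15.4 and 12.3 RPKM in WT. In RNA per length Sec23b was the main SEC23 gene, and the minor one, Sec23a, took 23.5% and 24.9% of the pair in KO, against 19.7% and 18.2% in WT. The other genes of coat assembly were Sec16a, the scaffold of ER exit sites, at 13.2 and 14.9 RPKM in KO and 11.1 and 12.3 RPKM in WT, and Preb, the exchange factor of SAR1, at 2.05 and 2.30 RPKM in KO and 1.89 and 1.40 RPKM in WT.

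Among the COPI genes 10 of 11 tested had a log2 fold change above 0, their median was 0.33, and 9 had KO above WT without overlap (59.2% and 30.0% of all tested genes). Copa, the alpha subunit (chromosome 1, 172082529 to 172122332), stood at 36.4 and 42.5 RPKM in KO, against 26.9 and 28.3 RPKM in WT (log2 fold change 0.50, SE 0.15, adjusted p = 0.251). Arcn1, the delta subunit, was at 23.8 and 31.0 RPKM in KO, against 18.7 and 20.4 RPKM in WT (log2 fold change 0.46, SE 0.17, adjusted p = 0.338). Copb2, the beta prime subunit that with alpha reads dilysine signals, was at 25.6 and 30.7 RPKM in KO, against 20.4 and 21.4 RPKM in WT (log2 fold change 0.41, SE 0.15, adjusted p = 0.331). The epsilon subunit Cope was at 18.2 and 19.8 RPKM in KO, against 15.3 and 14.5 RPKM in WT (log2 fold change 0.33, SE 0.13, adjusted p = 0.360).

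The gamma subunit comes as 1 of 2 paralogues, and neither gene had an unadjusted p under 0.05. Copg1 was at 11.8 and 14.0 RPKM in KO, against 10.5 and 10.4 RPKM in WT, and Copg2 was at 5.28 and 6.29 RPKM in KO and 5.86 and 7.01 RPKM in WT. As values only, Copg1 made up 69.1% and 69.0% of the pair in KO, against 64.2% and 59.7% in WT. Copg2 overlaps the imprinted gene Mest by 912 exon bases on the opposite strand, and Mest was at 8.04 and 10.7 RPKM in KO and 8.67 and 11.0 RPKM in WT, and reads of the overlap cannot be told apart.

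For the zeta subunit, Copz2 was at 25.5 and 34.1 RPKM in KO, against 22.1 and 23.1 RPKM in WT, and Copz1 at 21.1 and 21.0 RPKM in KO, against 18.1 and 19.8 RPKM in WT. Copz2 was above Copz1 in all 4 libraries. Copb1, the beta subunit, overlapped, at 14.0 and 16.5 RPKM in KO and 12.6 and 14.2 RPKM in WT. Within the complex the subunits were not at equal RNA levels: the highest, Copa, stood 6.90 and 6.77 times above the lowest, Copg2, in KO, and 4.58 and 4.03 times in WT.

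Arf1 and Arf4 were the most abundant RNAs of the set, and Arf5 the least. Arf1, the main trigger of COPI assembly, was at 97.4 and 96.3 RPKM in KO, against 92.3 and 93.1 RPKM in WT, a log2 fold change of only 0.06 (SE 0.13). Arf4 was at 67.0 and 95.4 RPKM in KO, against 52.3 and 60.5 RPKM in WT (log2 fold change 0.50, SE 0.21, adjusted p = 0.376), with the KO libraries far apart. Arf4 made up 40.7% and 49.6% of the summed RNA of Arf1, Arf4 and Arf5 in KO, against 36.0% and 39.3% in WT. Arf5 was at 0.418 and 0.566 RPKM in KO and 0.544 and 0.581 RPKM in WT, and was not tested.

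**Figure D3:**
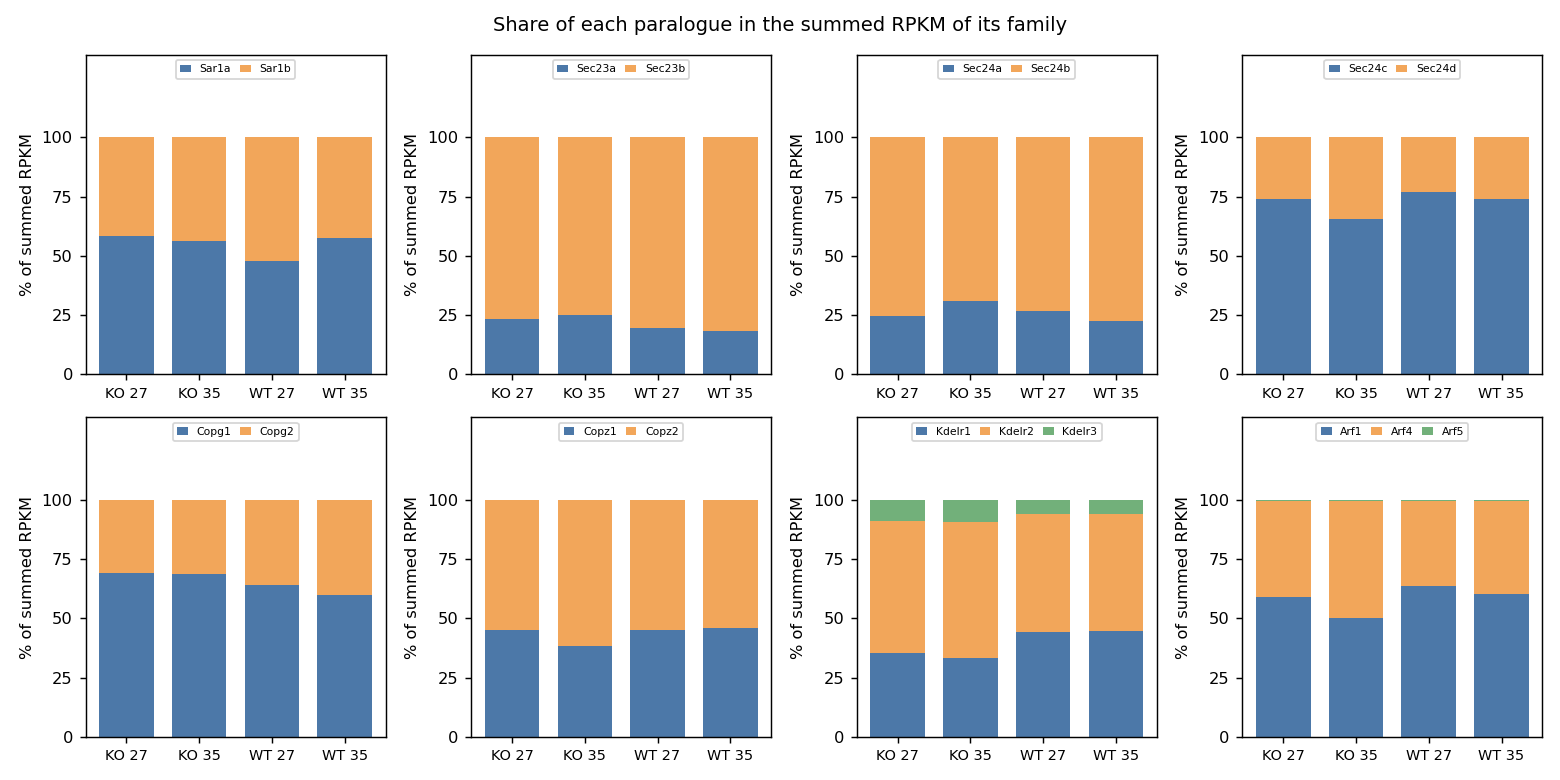
Share of each paralogue (percent of the summed RPKM of its family) in KO 27, KO 35, WT 27 and WT 35. The KDEL receptor, SEC23, gamma-COP and ARF families have shares that do not overlap between KO and WT libraries. Kdelr1, for example, is at 35.4% and 33.5% in KO and 44.2% and 44.5% in WT.

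The genes of tethering and fusion all had KO libraries above WT libraries, 4 of 4 where 30.0% of all tested genes did, with a median log2 fold change of 0.42. Uso1 encodes p115, the long tether that catches vesicles at the Golgi, and was at 11.1 and 13.4 RPKM in KO, against 7.39 and 7.65 RPKM in WT (log2 fold change 0.63, SE 0.15, adjusted p = 0.205). The SNARE gene Bet1 was at 3.91 and 3.77 RPKM in KO, against 2.53 and 2.17 RPKM in WT (log2 fold change 0.53, SE 0.14, adjusted p = 0.214). Its partners in the same SNARE complex were closer to WT. Sec22b was at 10.5 and 11.8 RPKM in KO, against 9.24 and 8.45 RPKM in WT (log2 fold change 0.30, SE 0.14), and Gosr2 at 9.02 and 11.2 RPKM in KO, against 8.70 and 7.88 RPKM in WT (log2 fold change 0.25, SE 0.16).

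The classes can be set side by side only as medians: 0.78 for retrieval receptors, 0.42 for tethering and fusion, 0.33 for COPI, 0.30 for COPII and 0.22 for cargo receptors, against 0.056 for all tested genes. The retrieval receptor median rests on 3 genes and is the value of Kdelr2, with Kdelr1 at 0.25. The difference between classes was not tested. Without KO 35 the COPI median was 0.17 and the COPII median 0.19, and the cargo receptor median was between 0.11 (without KO 35) and 0.37 (without WT 35) when 1 library was left out.

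KO and WT libraries of the same heading number were then compared. Between the libraries numbered 27, 39 of 43 members were higher in KO, where 60.0% of all tested genes were, with a median difference of 0.23 in log2(RPKM + 1). Between those numbered 35, 38 of 43 were higher in KO, where 56.3% of all tested genes were, with a median of 0.43. The median over all tested genes was 0.063 and 0.051 in these comparisons. Within groups, KO 35 was above KO 27 for 34 of 43 members (54.1% of all tested genes) and WT 35 above WT 27 for 29 of 43 (55.7%). KO 35 was therefore the library with the highest traffic RNA, and what sets it apart from KO 27 was not tested.

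**Figure D4:**
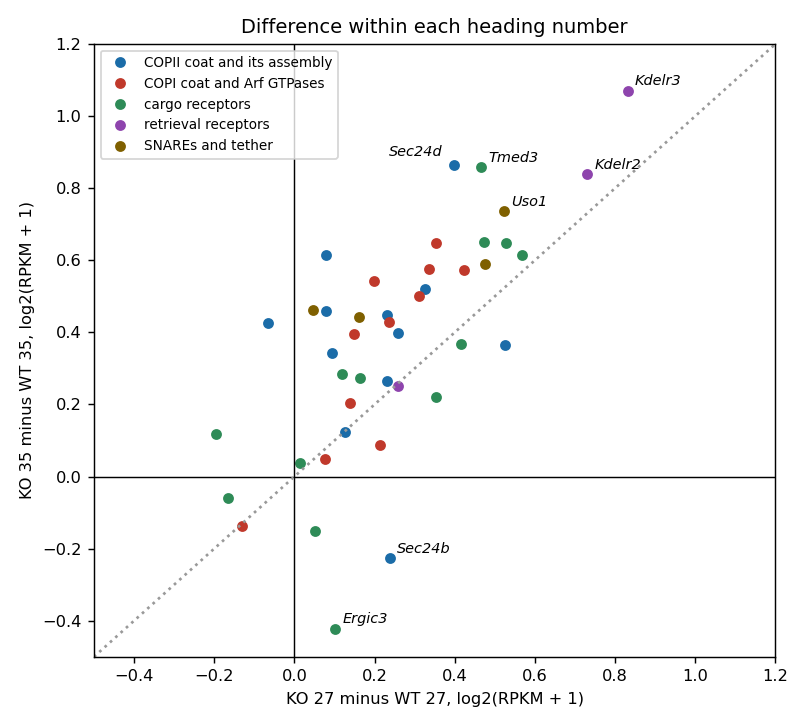
Difference in log2(RPKM + 1) between KO 35 and WT 35 (vertical) against that between KO 27 and WT 27 (horizontal) for the 43 tested genes, coloured by class; the dotted line marks equal differences. Most points lie right of and above 0, with medians of 0.23 (number 27) and 0.43 (number 35), and Kdelr3 and Kdelr2 lie farthest out.

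With the groups of the sample titles, 0 members were higher at an unadjusted limma p under 0.05 (2.11% of all tested genes were higher at that level), the member median was 0.14, and the lowest adjusted p was 0.998. In that grouping 6 members had KO above WT without overlap, where 18.1% of all tested genes did, and 2 below, where 13.9% did. It sets the libraries numbered 35 against those numbered 27, and Emc3 then differs by 0.17 in log2 units.

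Other genes of the same route were taken from 3 lists of 57 symbols in all, of which 56 were in the table and 49 were tested. Their median log2 fold change was 0.17, with 39 of 49 positive. None passed the limma test over all genes, while 5 higher and 2 lower had an unadjusted p under 0.05, and 21 had KO above and 2 KO below WT without overlap. Of all tested genes 8.17% and 5.68% were higher and lower at that p, 30.0% and 16.3% lay above and below without overlap, and 59.2% were positive, so the counts at that p were near the background. On the COPI side, Rint1, part of a tether that receives COPI vesicles at the ER, averaged 4.96 ± 0.138 RPKM in KO and 3.08 ± 0.0811 RPKM in WT, and Arfgap1, which triggers GTP hydrolysis on ARF1, 5.35 ± 0.740 RPKM in KO and 3.56 ± 0.0741 RPKM in WT (SD, n = 2 each). Arf2 went the other way, at 3.26 and 3.47 RPKM in KO and 5.65 and 4.17 RPKM in WT (log2 fold change -0.43, SE 0.17, adjusted p = 0.356).

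In fusion, Bet1l averaged 3.71 ± 0.781 RPKM in KO and 2.30 ± 0.0472 RPKM in WT, and Scfd1, the SM protein of this SNARE complex, 6.50 ± 0.588 RPKM in KO and 4.79 ± 0.248 RPKM in WT. The GTPase gene Rab1 averaged 38.8 ± 4.47 RPKM in KO and 30.9 ± 1.02 RPKM in WT. On the COPII side Bcap29 averaged 3.75 ± 1.25 RPKM in KO and 2.12 ± 0.304 RPKM in WT, and Yipf5 6.03 ± 0.441 RPKM in KO and 4.72 ± 0.233 RPKM in WT. The gene with the lowest p of these lists was lower in KO. Creb3l1, a membrane-bound transcription factor known to activate secretory pathway genes, was at 12.6 and 8.64 RPKM in KO, against 23.1 and 19.0 RPKM in WT (log2 fold change -0.94, SE 0.21, adjusted p = 0.196).

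Several COPII, COPI and KDEL receptor genes are known targets of XBP1, the transcription factor of the unfolded protein response that binds sites with an ACGT centre, so their promoters were searched for its letters. RefSeq promoters (GRCm38.p6, 250 bases before to 50 after the start) were at hand for 40 of 44 members. The core GACGTG, on either strand, was in 17 of 40 member promoters (42.5%), against 11.4% of 7651 tested genes with a promoter and 7.15% of all 27025 genes. The longer TGACGTGG, known as the UPRE and overlapping the core by construction, was in 6 of 40 (15%), against 1.11% of tested and 0.714% of all genes. Both contain CG, and member promoters held a median of 24 CG pairs against 23 in tested genes. Among 3554 tested genes with 16.75 to 30.25 CG pairs, the range between the members' quartiles, 11.6% held the core and 0.957% the UPRE. The ER stress elements ERSE, ERSE-II and C/EBP-ATF element (TGATGNAAT) were in no member promoter, and in 0.170%, 0.0915% and 0.588% of those of tested genes.

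The 17 members with the core all had log2 fold changes above 0 (median 0.37), and 16 had KO above WT without overlap. Of the 22 tested members without it 17 were above 0 (median 0.24), and 12 had KO above WT without overlap. Over all tested genes with a promoter, 570 of 869 with the core and 4003 of 6782 without it were above 0. Of all tested genes 36.5% with and 30.1% without the core had KO above WT without overlap. Over all tested genes the medians were 0.094 with and 0.054 without the core, and 0.13 with and 0.058 without the UPRE. Members with the core held a median of 26 CG pairs per promoter and those without it 19.5, against 27 and 22 over all tested genes. The part of CG content in these differences was not tested. A match in this window is a description of its letters and not a site of binding.

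The genes with the UPRE were Kdelr3, Sec24d, Sec23a, Copb2, Copb1 and Arf1, and their promoters are shown because they range from the member farthest from WT (Kdelr3, log2 fold change 0.95) to one nearly level with it (Arf1, 0.06). Each runs 5′ to 3′ on the strand of the gene from 150 bases before to 30 after the RefSeq start, with the UPRE and any further core in capitals (CCACGTCA is the UPRE read on the other strand). The positions are chr15:79516258-79516437 on the plus strand for Kdelr3, chr3:123267346-123267525 on the plus strand for Sec24d, chr12:59011988-59012167 on the minus strand for Sec23a, chr9:98563581-98563760 on the plus strand for Copb2, chr7:114254651-114254830 on the minus strand for Copb1 and chr11:59228238-59228417 on the minus strand for Arf1.
Kdelr3: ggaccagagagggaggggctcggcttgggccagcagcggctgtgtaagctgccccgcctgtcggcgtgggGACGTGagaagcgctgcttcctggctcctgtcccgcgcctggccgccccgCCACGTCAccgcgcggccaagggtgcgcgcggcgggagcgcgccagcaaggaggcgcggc
Sec24d: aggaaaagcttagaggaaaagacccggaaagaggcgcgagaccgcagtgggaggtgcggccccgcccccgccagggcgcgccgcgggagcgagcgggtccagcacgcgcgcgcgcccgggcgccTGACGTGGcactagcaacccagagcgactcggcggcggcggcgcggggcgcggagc
Sec23a: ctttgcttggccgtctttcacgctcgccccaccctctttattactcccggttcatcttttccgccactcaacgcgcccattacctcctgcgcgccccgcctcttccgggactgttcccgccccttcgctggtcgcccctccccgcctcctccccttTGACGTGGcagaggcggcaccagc
Copb2: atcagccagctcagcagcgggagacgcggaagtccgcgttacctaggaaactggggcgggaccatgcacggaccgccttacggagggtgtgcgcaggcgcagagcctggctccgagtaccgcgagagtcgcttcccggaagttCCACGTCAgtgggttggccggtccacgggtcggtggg
Copb1: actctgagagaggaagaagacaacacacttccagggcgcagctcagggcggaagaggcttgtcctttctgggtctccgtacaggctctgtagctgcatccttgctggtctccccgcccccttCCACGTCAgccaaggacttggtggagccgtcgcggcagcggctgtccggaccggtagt
Arf1: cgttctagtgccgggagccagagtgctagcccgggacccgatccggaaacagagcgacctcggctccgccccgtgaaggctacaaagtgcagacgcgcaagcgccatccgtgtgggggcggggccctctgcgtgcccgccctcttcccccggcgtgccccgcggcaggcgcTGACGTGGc
The UPRE begins 30 bases before the start in Kdelr3, 26 before it in Sec24d, 28 before it in Copb1 and 7 before it in Copb2, at base 7 of the transcript in Sec23a and at base 22 in Arf1. RefSeq gives Arf1 another start as well, and the same UPRE begins 84 bases before that one. Kdelr3 holds a second core 80 bases before the start. The Sec24d window lies inside the gene interval given above, which begins farther upstream at 123264801. Its UPRE is thus near 1 RefSeq start and not at the edge of that interval.

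**Figure D5:**
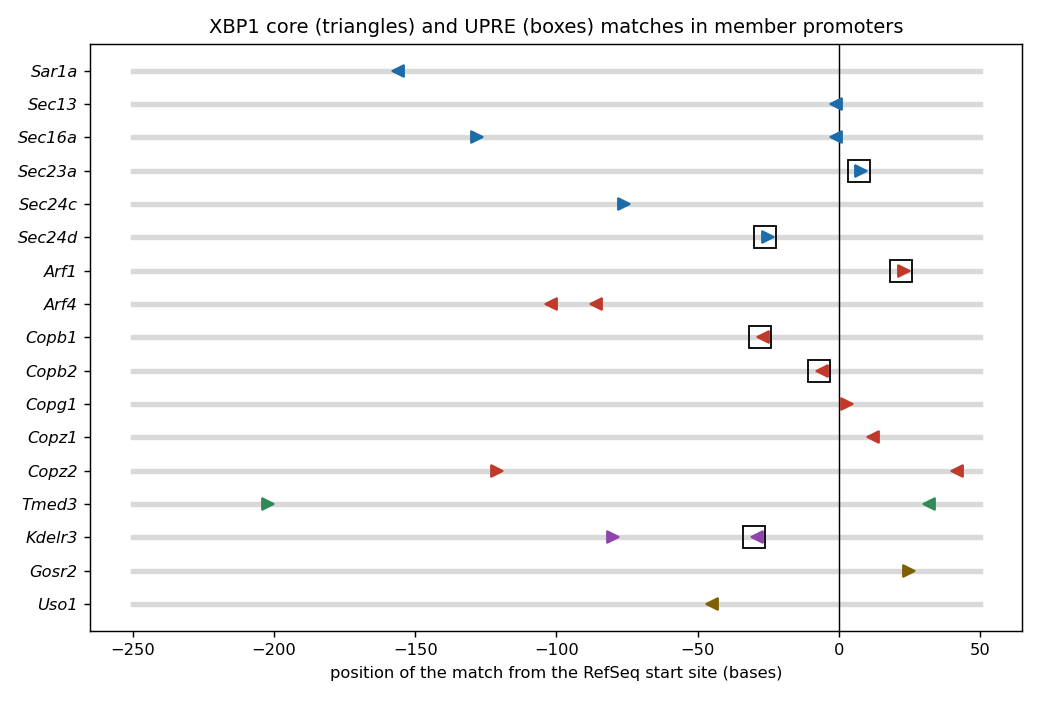
Position of matches to the XBP1 core (triangles, pointing along the strand of the match, coloured by class) and the UPRE (boxes) in the 17 member promoters that hold one, in bases from the RefSeq start site; grey bars span the 300 bases searched, and 1 window per gene is drawn. In the windows drawn the 6 boxes begin within 30 bases of the start site, that of Kdelr3 beginning 30 bases before it.

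The authors' deposited table also holds a fold change and a p-value per gene, and these do not give the same directions as the RPKM columns. In the authors' deposited table the fold change had the opposite sign to the ratio of RPKM means for 17 of 43 members. The authors' deposited table gave -1.08 for Kdelr2, whose RPKM means had a ratio of 1.77 in KO over WT, and -1.20 for Uso1, whose RPKM ratio was 1.63. The authors' deposited table gave 2.16 for Kdelr3, whose RPKM ratio was 2.41, and 1.49 for Surf4, whose RPKM ratio was 1.56. The lowest p of a member in the authors' deposited table was 0.149 (Ergic3), and 0 of 43 members were under 0.05, where 3.57% of all tested genes were.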

How the data were processed

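The labels' protocols give an RNeasy Micro kit for RNA and Nextera XT for libraries. Among tools, the submitters' notes on processing list Cufflinks 2.0.2, Bowtie2 2.1.0, TopHat2 2.0.8 and DESeq, with mm10 as build and no roles; annotation and the handling of reads that map to several places are not stated. The deposited values are RPKM, 1 column per library, per the file headers, not log transformed. The authors' p-values and signed fold change score (the ratio, or minus its inverse where it is below 1), per the file headers, are used only where named. Reads per library are unknown, so precision is given as the spread between libraries.

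Log2(RPKM + 1) was fitted by limma 3.58.1 (R 4.3.3) for genes reaching 1 RPKM in 2 libraries or more, with genotype by heading as the 1 term and a trended prior variance (2 residual and 3.65 prior degrees of freedom), with two-sided p-values adjusted by Benjamini-Hochberg over 10128 genes. The plan named a test for counts and one for RPKM, and the second was used. The fit was tested on simulated data. Members, classes, lists and tests were chosen with earlier results of these data known. Values are given for Emc3, for all members, and for up to 3 genes of each further list with the smallest p. Positions, promoters and exon overlaps come from RefSeq (GRCm38.p6) and GENCODE (GRCm38), matched by symbol for 44 of 44 members. Tables and figures were made with Python 3.11.15, numpy 2.4.6, pandas 2.3.3 and matplotlib 3.10.9. The planned comparison of receptor protein tails was not run. Alternatives were 2 scalings, 2 pseudocounts, 2 filters, no trend, each library left out, a block by heading number, and the groups of the titles.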

Additional observations from a re-analysis of the deposited data

How the results depend on the processing

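In every setting with groups by the headings the member median was positive. In these settings, and with the groups of the titles, no member passed the adjusted threshold. No member was lower at an unadjusted p under 0.05 in any of them. The main counts were 7 genes past the threshold, 15 members higher at an unadjusted p under 0.05, and 31 members with KO above and 1 with KO below WT without overlap. With each library left out in turn these were 8 to 43 genes, 4 to 14, 32 to 37 and 2 to 5 members. The medians were then 0.21 to 0.39 for the members, 0.19 to 0.37 for COPII, 0.17 to 0.39 for COPI, 0.35 to 0.48 for tethering and fusion, 0.11 to 0.37 for cargo receptors and 0.63 to 0.94 for retrieval receptors. Log2 fold changes that changed sign there were those of Sec24b (-0.01 without KO 27, -0.21 without WT 27), Tmed1 (-0.230 to 0.15), Tmed4 (-0.169 to 0.0700) and Ergic3 (-0.349 to 0.0278). The lone library of a group is assumed there to vary like the other group. The cause of these shifts was not tested.

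A pseudocount of 0.1 gave a cargo receptor median of 0.29. A pseudocount of 5, which by construction shrinks differences of low genes, gave 4 genes past the threshold and medians of 0.19 for COPII, 0.15 for cargo receptors, 0.49 for retrieval receptors and 0.24 for tethering and fusion. Without a filter 0 genes passed in limma (1979 at an unadjusted p under 0.05). A filter on a mean of 10 RPKM kept 23 members, none of them from tethering and fusion, so that class gave no median. With it 3 genes passed, and 19 members had KO above (33.4% of all genes kept) and 0 KO below WT without overlap. Medians were 0.39 for cargo and 0.52 for retrieval receptors. Quantile normalization gave 3 members below WT (20.4% of all tested genes), and turned Sec24b (-0.0560) and Tmed7 (-0.0334), as median scaling did (-0.0363 and -0.0169). The member median was 0.24 with quantile normalization and 0.26 with median scaling.

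With the groups of the titles 4 genes passed, and 0 members were higher at an unadjusted p under 0.05 (2.11% of all tested genes). There 6 members lay above (18.1% of all) and 2 below (13.9%) without overlap. The medians were 0.14 for the members, 0.15 for COPII, 0.10 for cargo receptors, 0.22 for retrieval receptors and 0.0524 for tethering and fusion. The sign turned there for Emc3 (0.17), Sec24c (-0.11), Sar1b (-0.0536), Preb (-0.0772), Copg2 (0.22), Arf1 (-0.0019), Tmed4 (0.14), Tmed7 (-0.0314), Tmed9 (-0.0087), Ergic1 (-0.0775), Ergic2 (0.0012), Ergic3 (0.11) and Bet1 (-0.10).

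No paired analysis was possible by the replicate numbers of the titles, because by the headings each of them falls in 1 group. A replicate block by the heading numbers 27 and 35 changed no call among the members and Emc3: 9 genes passed, 0 of them members, and 19 members were higher at an unadjusted p under 0.05 (9.52% of all tested genes). Without the trend 5 genes passed, and Emc3 and the members kept their direction and their side of the threshold.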

Other observations

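The fold changes in the authors' deposited table mostly followed 1 of 2 patterns, gene by gene. Of 10054 tested genes above 0 in every library, 51.3% had a fold change in the authors' deposited table within 0.25 log2 units of the ratio of RPKM means. A further 43.3% missed that ratio, but their fold change in the authors' deposited table came within 0.25 log2 units of the value that results when KO 27 is entered as 0 and KO 35 is averaged with it. Of the 43 traffic genes in the authors' deposited table, 21 were of the first kind, 21 of the second and 1 of neither. Kdelr2 was of the second kind, with a log2 value of -0.11 in the authors' deposited table, 0.82 from the RPKM means and -0.02 with KO 27 as 0. With KO 35 as 0 the value for Kdelr2 was -0.35, also within 0.25 log2 units. The second kind thus does not single out KO 27 gene by gene. Of 22 members more than 0.5 log2 units below the RPKM ratio, 19 lay nearer to the value with KO 27 as 0. Over all such genes 3698 of 4677 did. For the 4677 genes that the authors' deposited table puts more than 0.5 log2 units below the RPKM ratio, the median distance was 0.069 with KO 27 as 0 and 0.20 with KO 35 as 0. Only genes above 0 RPKM in every library were compared, so KO 27 could not be at 0 for any of them. The cause of the pattern was not tested.

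Sec24a and Sar1b, which act in the same coat, lie next to each other on chromosome 11 with 6501 bases between them. Both overlapped between the groups, at 5.80 ± 1.15 RPKM in KO and 4.81 ± 0.282 RPKM in WT for Sec24a, and 15.8 ± 1.58 RPKM in KO and 13.8 ± 2.18 RPKM in WT for Sar1b (SD, n = 2 each).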
